A study of Mus musculus with 6 samples.

Results

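Neurons, like other cells, shed small extracellular vesicles (sEV), which carry RNA and protein. Described here are 5 annotated mouse entries, of 53379 listed per library, that hold or may hold ribosomal RNA (rRNA) reads: Gm42418, AY036118 and CT010467.1 on chromosome 17, Mir6236, and Lars2. They were taken by symbol through the GENCODE M21 annotation. The members were chosen by their measured FPKM in these same libraries and by earlier comparisons of the 2 groups, so their levels and differences are given as descriptions.

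The vesicles came from primary cultures of wild-type (WT) embryonic cortical neurons of the mouse, and total RNA was sequenced. The 3 control libraries (titled exo-con) are from neurons labelled control, which the series text calls normoxic, and the 3 OGD/R libraries (titled exo-ogd) are from neurons with a treatment labelled OGD/R, which the series text calls hypoxic. The labels give no strain, embryonic age or time of treatment, and nothing says that replicates were separate cultures, so the spread between libraries may be technical. OGD/R is not spelled out, so hypoxia cannot be told apart from other parts of that treatment.

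The libraries held 1092724 to 1494499 fragments counted on genes in the control group and 1320916 to 2141611 in OGD/R. A family of 6 near-identical short entries around Gm23935 took 0.303 to 4.34% of these fragments in control libraries and 1.97 to 49.6% in OGD/R libraries, so values are also given rescaled to the fragments outside it. All 10 neuronal markers examined were above 0 in every library, with a summed level of 86.6 to 116 FPKM in control and 69.7 to 108 in OGD/R. FPKM is the number of fragments scaled to the length of the gene and to all fragments counted in the library. Summed markers of other cells were of similar size, at 52.6 to 77.4 and 30.8 to 66.2 FPKM for 6 astrocyte genes, 52.6 to 73.3 and 25.9 to 70.1 for 7 oligodendrocyte genes, 48.1 to 75.0 and 50.001 to 84.0 for 6 microglial genes and 36.1 to 78.4 and 23.8 to 62.9 for 5 endothelial and mural genes. Olig1, Olig2, Tmem119 and Cldn5 were listed at 0 in at least 1 library. The part of these cell types in the results was not tested.

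Ribosomal RNA makes up most of the RNA of a cell. RNA polymerase I copies tandem ribosomal DNA units into one long precursor, whose external and internal spacers are removed to leave the 18S, 5.8S and 28S rRNAs. Most units are missing from the genome assembly, but stray copies lie within or beside annotated genes, and reads of rRNA that a library preparation did not remove can be counted there. Lars2 is a protein-coding gene for the leucyl-tRNA synthetase of mitochondria, the enzyme that loads leucine onto its transfer RNA.

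The sequences of the chromosome 17 entries show which strand of rRNA each carries. Gm42418 (ENSMUSG00000098178, annotated as a lincRNA of 1 exon) lies at chr17:39846958-39848788 on the plus strand of GRCm38. CT010467.1 (ENSMUSG00000106106, annotated as rRNA) lies at chr17:39846353-39848827 on the minus strand. The first 60 bases of Gm42418, at chr17:39846958-39847017, are shown with the bases that CT010467.1 carries over the same positions. Both runs are GENCODE M21 transcript sequence, 5′ to 3′:
Gm42418: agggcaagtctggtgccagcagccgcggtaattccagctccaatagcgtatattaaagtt
CT010467.1: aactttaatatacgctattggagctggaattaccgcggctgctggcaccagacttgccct

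One run is the reverse complement of the other, and the 2 transcripts are complementary without a mismatch over 1244 bases. As background, the upper run is a strongly conserved stretch of 18S rRNA in its sense orientation, and the RefSeq gene table for GRCm38.p6 lists Gm42418 as a synonym of Rn18s-rs5. At these bases the plus-strand entry Gm42418 thus carries 18S sequence in sense, and the minus-strand entry annotated as rRNA carries it in antisense. How much of either entry is 18S was not measured, so not all of their reads are shown to be 18S reads. AY036118 (ENSMUSG00000105361, a lincRNA at chr17:39847113-39848035, minus strand) is contained whole in CT010467.1: all 923 of its bases are bases 167 to 1089 of that transcript.

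Mir6236 (ENSMUSG00000098973) is annotated as a microRNA precursor on chromosome 9 and overlaps no other gene. Against all GENCODE M21 transcripts, 0 genes outside the members were alike to the chromosome 17 entries or to Mir6236 at 90% identity over 50 bases. No reference sequence of the rRNA precursor or of the rRNAs cut from it was searched. The likeness of Mir6236 to them was therefore not tested.

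Lars2 (ENSMUSG00000035202) spans chr9:123366927-123462666 on the plus strand. A stretch of 72 bases at chr9:123462048-123462119, in exon 21 of 21 and inside the 3′ UTR of 989 bases, was 98.6% identical to Gm15564, an antisense transcript of chromosome 16. The same search found 14 other genes alike to Lars2, over 52 to 121 bases at up to 94.3% identity, through 2 other annotated transcripts of Lars2 and not this stretch. As background, this stretch is taken to be 28S rRNA sequence. No file used here holds 28S rRNA, so that likeness was not measured. The deposited values are 1 number per gene, so where on Lars2 its reads lie is not known.

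**Figure D1:**
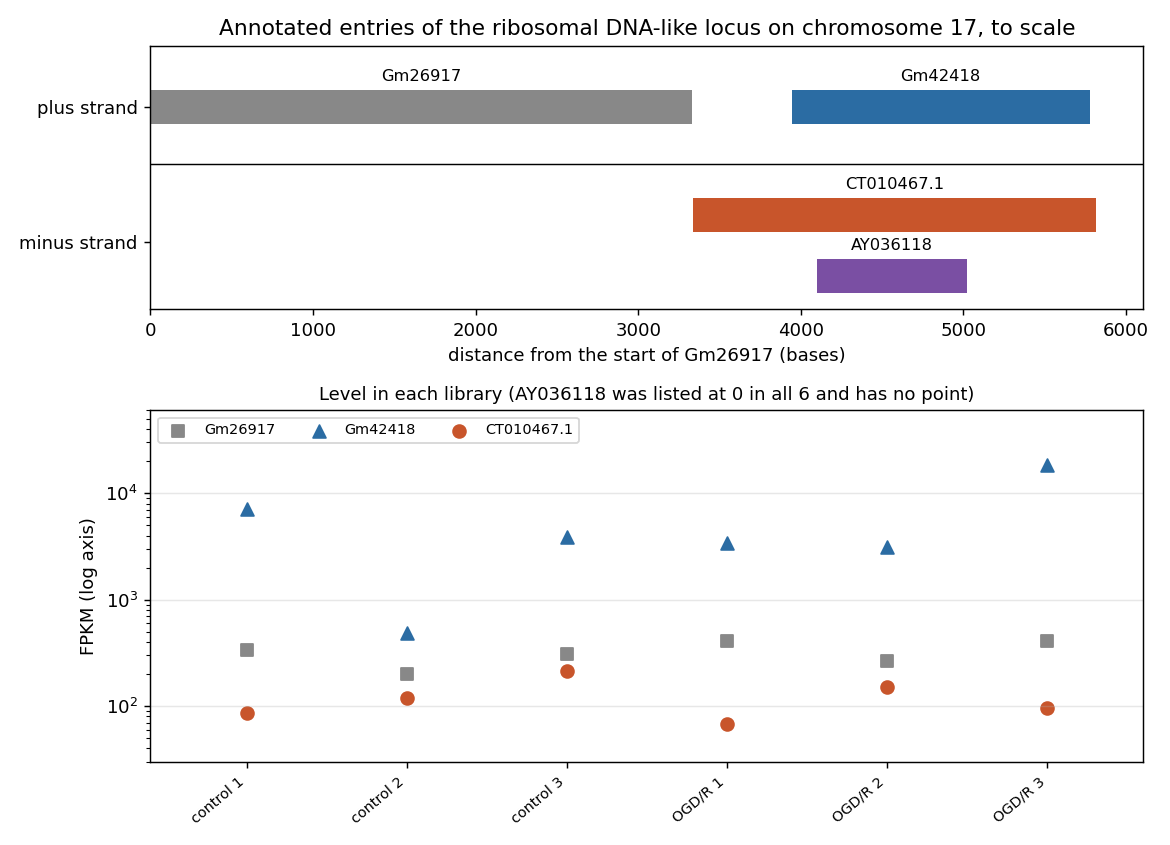
Upper panel: the annotated entries of the chromosome 17 locus drawn to scale by strand, against the distance in bases from the start of Gm26917. Lower panel: FPKM (log axis) of 3 of them in each of the 6 libraries, where Gm42418 runs from 482 to 18259 FPKM while Gm26917 stays between 200.2 and 411 and CT010467.1 between 68.2 and 212.

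Gm42418, the entry with 18S sequence in sense, was above the other chromosome 17 entries in each of the 6 libraries and varied more than they did. It had 7072, 482 and 3844 FPKM in control 1, 2 and 3 and 3400, 3125 and 18259 FPKM in OGD/R 1, 2 and 3. OGD/R 3 was the highest library and control 2 the lowest, 37.9 times apart, and the groups overlapped. These values rest on 1247 to 44160 reads. Gm42418 held 0.0882% of the fragments in control 2 (95% Wilson interval 0.0835 to 0.0933) and 3.34% in OGD/R 3 (3.31 to 3.37). Such intervals cover counting error only. As shares, the values give neither the number of vesicles nor the amount of an RNA per vesicle. Less of this RNA cannot be told apart here from more of the other RNAs in the same library. The group means were 3799 ± 3295 and 8261 ± 8659 FPKM (SD, n = 3 each).

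The antisense entry CT010467.1 was far lower and varied less. It had 86.1, 118 and 212 FPKM in control 1, 2 and 3 and 68.2, 150.4 and 94.99 FPKM in OGD/R 1, 2 and 3, from 174 to 586 reads. Control 3 was the highest and OGD/R 1 the lowest, 3.11 times apart, and the groups overlapped, with means of 139 ± 65.4 and 105 ± 41.9 FPKM (SD, n = 3 each). Rescaled to fragments outside the Gm23935 family the 6 libraries lay between 90.02 and 213 FPKM. Its deposited FPKM divide by 1849 bases, while 1543 of its exon bases are free of AY036118.

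Of the reads on the pair of opposite entries, the sense entry Gm42418 held 98.8, 80.1 and 94.7% in control 1, 2 and 3 and 98.0, 95.4 and 99.5% in OGD/R 1, 2 and 3. The sense strand thus dominated in every library, and it did so least in control 2, where Gm42418 was lowest. Per countable base Gm42418 was 3.40 times as high as CT010467.1 in control 2 and 160 times in OGD/R 3.

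AY036118 was listed at 0 in all 6 libraries. The limit that a count of 0 sets is 3 reads, which is 0.000140 to 0.000275% of a library's fragments. All of its 923 exon bases lie under the exon of CT010467.1 on the same strand, which leaves it 0 bases of its own. Whether counting used strand is not given in the sources used here, but the values bear on it. There were 727 genes covered in this way by exons on their own strand, and 705 of them were listed at 0 throughout. Of the 447 genes covered only by exons on the opposite strand 67 were, and of all genes 10.1%. The 0 of AY036118 therefore says nothing of its RNA.

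Gm26917 (ENSMUSG00000097971, chr17:39843013-39846341, plus strand) is the annotated gene next to the 18S sequence on its upstream side, where a ribosomal DNA unit has its external transcribed spacer. It had 338, 200.2 and 309 FPKM in control 1, 2 and 3 and 411, 263 and 411 FPKM in OGD/R 1, 2 and 3. Control 2 was again the lowest, but the whole range was 2.05 times. Gm42418 stood 2.41 times above Gm26917 in control 2, 12.5 and 20.9 times in the other control libraries and 8.28, 11.9 and 44.4 times in OGD/R 1, 2 and 3.

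Mir6236, the microRNA entry, split the libraries differently. It had 9419, 615 and 152 FPKM in control 1, 2 and 3 and 7217, 2368 and 8438 FPKM in OGD/R 1, 2 and 3. Control 1, OGD/R 1 and OGD/R 3 stood high, control 3 was the lowest, and the groups overlapped. The range was 61.8 times, on 28 reads in control 3 and 1266 in control 1. The group means were 3396 ± 5222 and 6008 ± 3211 FPKM (SD, n = 3 each).

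The high libraries of Mir6236 were also those with most reads of the Gm23935 family, at 4.34% in control 1, 49.6% in OGD/R 1 and 24.5% in OGD/R 3, against 0.303 to 1.97% in the other 3. Mir6236 did not keep a fixed ratio to that family, with 1.79 reads per 1000 family reads in OGD/R 1 and 26.7 in control 1. The part of the family's reads in the level of Mir6236 was not tested.

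Lars2 followed Gm42418 more closely than the other members did. It had 223, 42.9 and 132 FPKM in control 1, 2 and 3 and 155, 195 and 487 FPKM in OGD/R 1, 2 and 3, from 236 to 2504 reads. OGD/R 3 was the highest and control 2 the lowest, as for Gm42418, 11.4 times apart, and the groups overlapped. The group means were 133 ± 90.2 and 279 ± 181 FPKM (SD, n = 3 each).

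**Figure D2:**
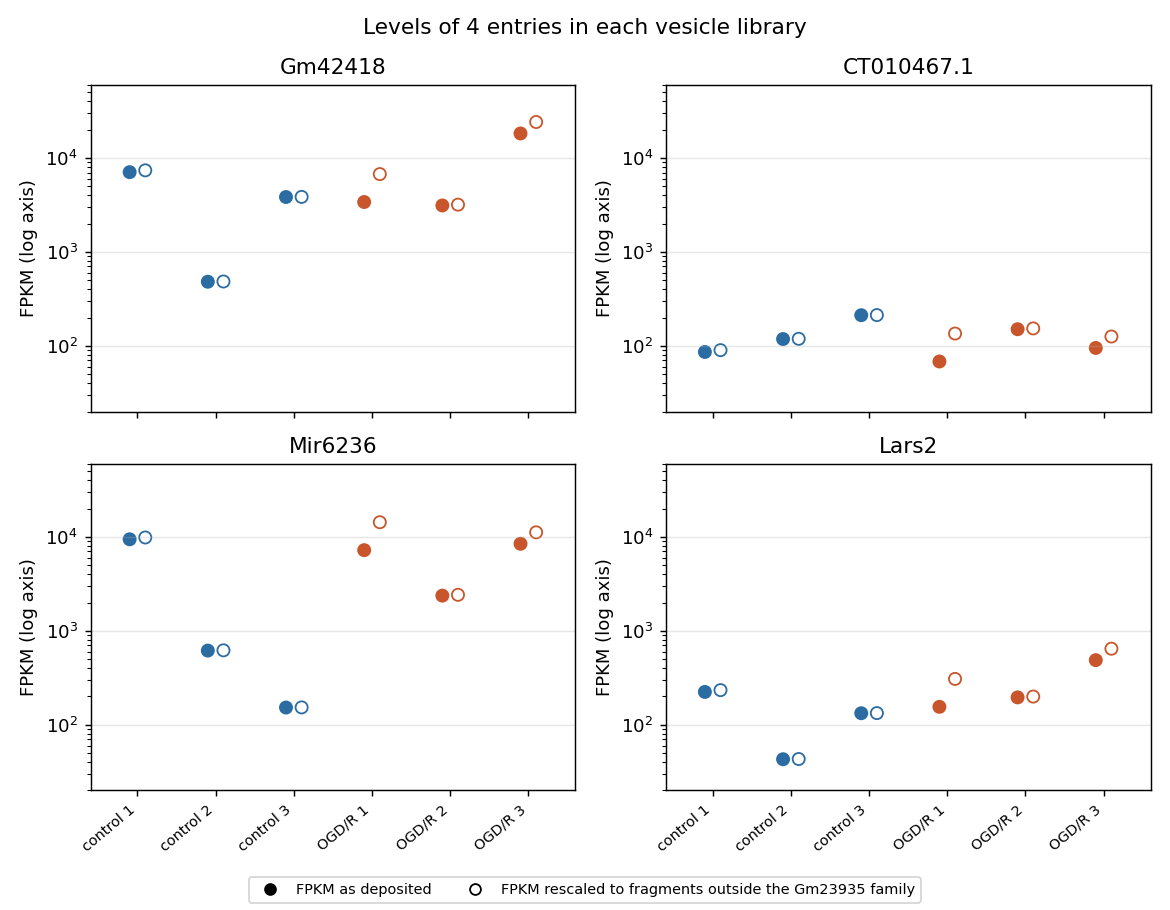
FPKM (log axis) of Gm42418, CT010467.1, Mir6236 and Lars2 in the 3 control and 3 OGD/R libraries, 1 point per library, filled as deposited and open after rescaling to fragments outside the Gm23935 family. The highest library is OGD/R 3 for Gm42418 and Lars2, control 3 for CT010467.1, and control 1 (as deposited) or OGD/R 1 (rescaled) for Mir6236.

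Ratios of reads within a library do not depend on the total that FPKM divides by. Lars2 had 67.1, 189 and 73.3 reads per 1000 reads of Gm42418 in control 1, 2 and 3 and 96.9, 133 and 56.7 in OGD/R 1, 2 and 3. This ratio spanned 3.34 times while Gm42418 itself spanned 37.9 times, and the groups overlapped. For Mir6236 the ratio was 89.5, 85.8 and 2.66 in control and 143, 50.9 and 31.0 in OGD/R, a span of 53.6 times that rests on the few reads of control 3. For CT010467.1 it was 12.3, 248 and 55.7 in control and 20.3, 48.6 and 5.25 in OGD/R, a span of 47.2 times. Of these 3 ratios that of Lars2 had the narrowest range.

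**Figure D3:**
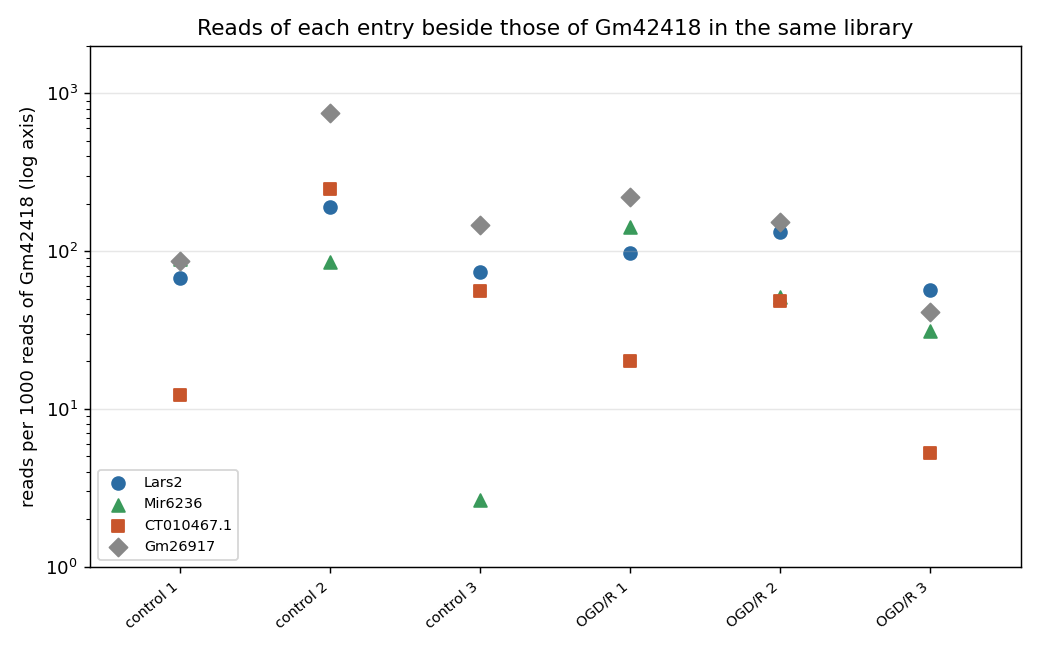
Reads of Lars2, Mir6236, CT010467.1 and Gm26917 per 1000 reads of Gm42418 (log axis) in each of the 6 libraries. Lars2 stays between 56.7 and 189, while Mir6236 runs from 2.66 to 143 and CT010467.1 from 5.25 to 248.

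Lars2 stood apart in level from the enzymes it works with. Of the other 18 aminoacyl-tRNA synthetases that act in mitochondria, 18 were below Lars2 in each of the 6 libraries. Their median was 9.29, 8.50 and 10.7 FPKM in control 1, 2 and 3 and 5.40, 10.1 and 9.05 in OGD/R 1, 2 and 3. Lars2 was 5.04 (control 2) to 53.8 (OGD/R 3) times as high as that median. The mitochondrial genes with the highest means were Gars, which also serves the cytosol, with 21.1, 33.0 and 37.7 FPKM in control and 5.89, 34.0 and 16.9 in OGD/R, and the phenylalanine and threonine enzymes Fars2 (24.9 ± 5.83 and 19.6 ± 5.76 FPKM) and Tars2 (23.0 ± 5.14 and 20.1 ± 8.84; SD, n = 3 each).

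Lars, the leucyl-tRNA synthetase of the cytosol, had 20.8 ± 5.65 FPKM in control and 19.7 ± 7.95 in OGD/R. Among the 18 cytosolic synthetases the highest was Cars, the cysteine enzyme, with 43.7 ± 18.6 and 26.6 ± 10.4 FPKM, followed by Farsb, a subunit of the phenylalanine enzyme, with 36.6 ± 15.7 and 23.3 ± 8.32. Lars2 was above all 18 in 5 libraries and above 16 in control 2.

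**Figure D4:**
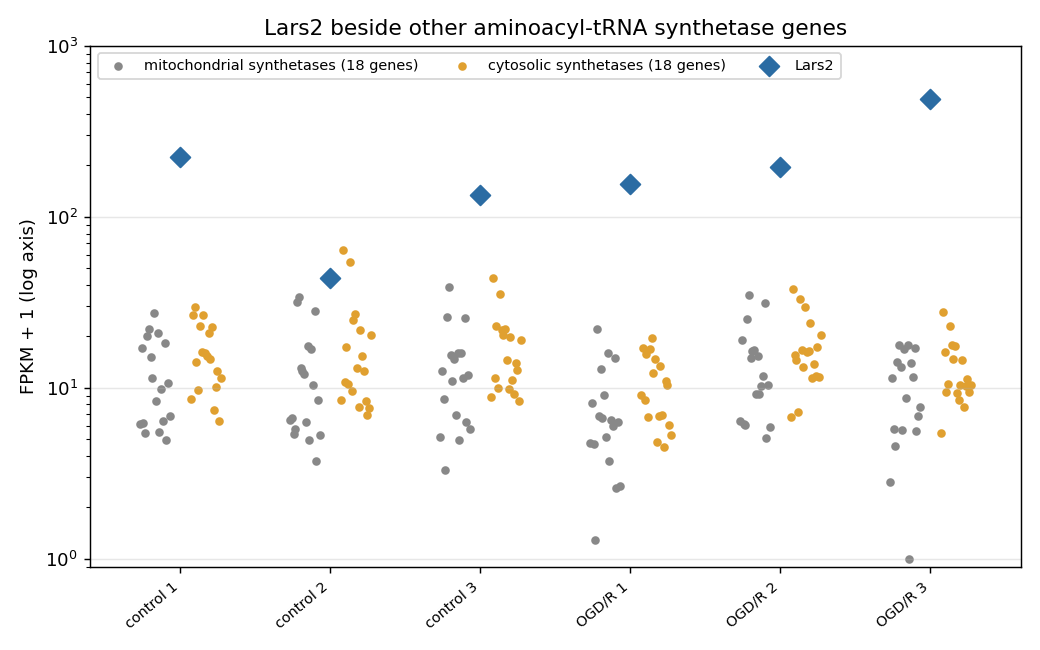
FPKM + 1 (log axis) of Lars2 (diamonds) and of 18 mitochondrial and 18 cytosolic aminoacyl-tRNA synthetase genes (1 point per gene) in each library. Lars2 lies above all 18 mitochondrial genes in the 6 libraries, by the least in control 2, where it has 42.9 FPKM.

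Between OGD/R and control vesicles, the fit over all genes gave log2 fold changes on the log2(FPKM + 1) scale of 1.30 ± 2.16 (SE) for Gm42418, 2.45 ± 1.88 for Mir6236, 1.17 ± 0.73 for Lars2 and -0.38 ± 0.52 for CT010467.1. These SEs draw on a variance trend over all genes as well as on each entry's own spread, and they moved with the setting. AY036118 had too low a mean to enter. The median of all 44125 tested genes was -0.44. With libraries centred on their medians the values were 1.75, 2.90, 1.62 and 0.07, and that of CT010467.1 was also above 0, at 0.06, after rescaling to fragments outside the Gm23935 family, so its sign depended on the scaling.

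Of the 4 members tested 0 passed in limma, and 0 had an unadjusted p under 0.05. Of all tested genes 0.0159% passed and 6.76% had an unadjusted p under 0.05. With limma-voom on recovered reads, and totals taken without the Gm23935 family, Gm42418, Mir6236 and Lars2 were called higher, where 0.0472% of genes were called higher and 0.142% in either direction. The groups did not overlap in FPKM for 0 of the 4, against 11.9% of all tested genes. These calls come from the contrast that helped to choose the members, and nothing is read from them. Without control 2 the log2 fold change of Gm42418 was 0.15 and that of Lars2 0.51, and without OGD/R 3 they were 0.47 and 0.68. Control 1 and control 3 weighed most on Mir6236, which had 4.09 without control 1 and 1.12 without control 3.

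The expression of the machinery that makes and processes rRNA was examined beside the members. Of 42 genes of RNA polymerase I and early pre-rRNA processing 8 were higher and 34 lower by sign. Most tested genes were lower too, with 11093 higher and 33032 lower of 44125. The median log2 fold change was -0.30 for the 42 genes against -0.44 for all tested genes. Fbl, the methyltransferase of box C/D particles, had 46.3, 46.4 and 42.7 FPKM in control and 18.6, 36.7 and 18.5 in OGD/R. Its groups did not overlap, as for 5 of the 42 genes (11.9%) and 11.9% of all tested genes. Fbl did not pass (log2 fold change -0.92 ± 0.41 SE, adjusted p = 0.720, limma). Nop10, a protein of box H/ACA particles, had 39.3 ± 15.8 and 31.1 ± 10.6 FPKM, and Znrd1, a small subunit of RNA polymerase I, 43.9 ± 17.5 and 39.7 ± 25.6 (SD, n = 3 each).

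The mitochondrial synthetases other than Lars2 had 3 members higher and 15 lower (median -0.29), and the cytosolic ones 4 higher and 14 lower (median -0.31). Other entries annotated as rRNA were 97 higher and 161 lower of 258 tested (median -0.68), and a further 93 of the 355 in the files were at 0 in all libraries. With libraries centred on their medians the higher members were 25 of 42, 14 of 18, 11 of 18 and 120 of 258. Of all 44125 tested genes 22292 were then higher. In limma 0 of these genes passed, and in limma-voom 0 were called. An unadjusted p under 0.05 was found for 0 of the 18 mitochondrial synthetases, 0 of the 18 cytosolic ones and 0 of the 42 RNA polymerase I genes. It was found for 35 of the 258 other rRNA entries (13.6%), against 6.76% of all tested genes. The groups did not overlap for 15 of the 258 (5.81%), against 11.9% of all tested genes. The median of the 355 entries was 4.85 FPKM in control 3 and 0 in every other library, so many of them rest on few reads. The rRNA entries of highest mean did not share 1 pattern. The 5S rRNA gene n-R5s155 had 972, 43.8 and 17.8 FPKM in control and 525, 67.3 and 1286 in OGD/R. It was followed by Gm22224, with 295, 358 and 331 FPKM in control and 271, 387 and 57.0 in OGD/R, and n-R5s194, with 208, 11.9 and 11.2 FPKM in control and 349, 11.6 and 534 in OGD/R.

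Gm42775, the lincRNA nearest to Mir6236 on the opposite strand (chr9:110288952-110293937), had 8.66, 10.5 and 15.4 FPKM in control and 5.05, 1.87 and 3.07 in OGD/R (log2 fold change -1.56 ± 0.51 SE, adjusted p = 0.679, limma), from 2 to 17 reads. It thus did not share the high libraries of Mir6236. Gm15564, named after its values were seen for the stretch it shares with Lars2, had 18.5, 14.3 and 12.3 FPKM in control and 13.7, 47.0 and 23.6 in OGD/R, and was highest in OGD/R 2 rather than OGD/R 3.

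Patterns most like each member were sought among 16754 genes with a mean of at least 20 reads, as the Pearson correlation over the 6 libraries of log2 fragments scaled to the library's total outside the Gm23935 family. Such a search over 6 points finds high values for many genes, and the points share library and depth. For Gm42418 the closest were Prodh (r = 0.998), Gfpt1 (0.986) and Lrba (0.985), whose deposited FPKM spanned 1.82 to 2.20 times. For Lars2 they were Taf15 (0.998), Gm42444 and Gm15890 (0.997 each), for Mir6236 Gpr165 (0.996), Zfp106 (0.992) and Ldlrad4 (0.989), and for CT010467.1 Slbp (0.999), Zfp467 (0.987) and Tnfrsf1a (0.978). Their deposited FPKM spanned 2.04 to 4.77 times for Lars2 (itself 11.4), 1.81 to 2.44 for Mir6236 (61.8) and 2.51 to 2.93 for CT010467.1 (3.11). All these spans are of FPKM before rescaling, not of the rescaled values that were correlated. An r above 0.9 was found for 1.89% of the genes with Gm42418, 2.29% with Lars2, 1.21% with Mir6236 and 0.436% with CT010467.1. The members were left out of this search. Lars2 had r = 0.975 with Gm42418, below Prodh, Gfpt1 and Lrba, while Mir6236 had 0.632 and CT010467.1 -0.0822. With Gm23935 the r was 0.907 for Mir6236, 0.773 for Lars2, 0.676 for Gm42418 and -0.373 for CT010467.1.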

How the data were processed

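RNA of vesicles was sequenced in 6 libraries. Per the labels' protocols, extraction used Trizol and library preparation an Epi mini longRNA-seq kit. The authors deposited 1 table per library with FPKM values for 53379 Ensembl genes, in files whose names mention HTSeq. Aligner, genome build and annotation are not given in the sources used here. Coordinates and lengths are those of GENCODE M21 (GRCm38), which held 53274 of the identifiers. With each gene's longest transcript 95.96% of the values above 0 were whole reads within 0.01, which gave the fragments counted on genes. Shares have 95% Wilson intervals. The test, 3 libraries against 3, was limma 3.58.1 under R 4.3.3 on log2(FPKM + 1), for genes whose mean reached 1 FPKM, with a variance trend in eBayes; p-values are two-sided and called at a Benjamini-Hochberg adjusted p under 0.05. limma-voom on the recovered reads was an alternative, with others on scaling, pseudocount, filter, trend, replicate block and left-out libraries. Overlaps used bedtools 2.31.1 and likeness blastn 2.17.0; Python 3.11.15 and pandas 2.3.3 did the rest. The fits were tested on simulated data, with 50 genes changed at each fold. There limma called 0 at 2-fold, 0 at 4-fold, 2 at 8-fold and 16 at 16-fold, and also 46 of 42140 unchanged genes. At the same folds limma-voom called 0, 33, 46 and 49, and 1 unchanged gene. A gene that did not pass in limma can thus still differ by a large fold. The simulated reads were drawn for the fragments outside the Gm23935 family, while the FPKM given to limma divided by all fragments. Unchanged genes were therefore lower in libraries rich in that family, so the 46 calls are not plain false calls. Every simulated gene had the same dispersion, that of a typical well-covered gene, so these counts do not carry over to the members, which vary more.

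Members and lists were chosen with earlier results of these data known. Named genes are the members, the 3 most alike in pattern, and the 3 of highest mean FPKM of each list. The sequence of 1 entry is not reported here.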

Additional observations from a re-analysis of the deposited data

How the results depend on the processing

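The count of genes that passed over the whole table was 7 in limma. It was 0 with libraries centred on their medians, with a pseudocount of 0.1, without a filter, without a variance trend and with a replicate block, and 60 and 231 in limma-voom with totals taken without and with the Gm23935 family. With 1 library left out it was 0 to 71, and the 71 came without OGD/R 2. Over 15 alternatives the log2 fold changes stayed above 0, at 0.15 to 2.09 for Gm42418, 1.12 to 4.09 for Mir6236 and 0.51 to 1.69 for Lars2, and ran from -0.68 to 0.07 for CT010467.1. With 1 library left out that of CT010467.1 ran from -0.68 to -0.02. Changing the filter, the variance trend or the replicate block cannot move a gene's fold change, so those alternatives do not bear on its sign. The SE did move. For Gm42418 it was 2.16 in the main fit, 1.14 without a variance trend and 716 without a filter. In limma-voom with totals taken without the family it was 0.42. For Mir6236 these values were 1.88, 1.41, 147 and 0.55, and for Lars2 0.73, 0.77, 0.84 and 0.27. Whether these entries passed thus rests partly on the setting. The mean share of Mir6236 in OGD/R was 0.0739% of all fragments and 0.114% of those outside the family. Taken over the union of exons, which the values do not support as the length behind them, the share of Lars2 would be 0.147% in control and 0.309% in OGD/R. Same-numbered libraries deviated together with correlations of 0.04, 0.10 and -0.06, and 3 of the 6 libraries correlated best with their own number. No clear pairing by number was seen, but most genes have few reads, so a pairing could be missed. In this balanced design a block cannot move the fold changes. Depth limits Mir6236 in control 3, at 28 reads.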
